A study of Homo sapiens with 6 samples.

Results

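Mitochondrial ribosomal protein genes encode the proteins of the mitoribosome, which translates the few proteins made inside mitochondria. They were taken as every gene whose symbol in the platform annotation is MRPL or MRPS followed by a number and, for some, a letter A to C. This gave 73 of the 14884 genes named on the array, 48 with an MRPL symbol and 25 with an MRPS symbol. One probe set was used per gene, and all 73 passed the filter on dim genes that left 10640 genes for testing. The MRPL and MRPS letters do not fully match the subunits, because MRPS30 and MRPS18A sit in the large subunit. By structure the 73 genes thus comprised 50 of the large and 23 of the small subunit.

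RNA came from MDA-MB-231, a human breast cancer line without hormone receptors, grown in DMEM with serum and transfected with 1 of 3 small interfering RNAs using a lipid reagent. The groups were siATM, directed at the DNA damage kinase ATM, sip53, and the control siNC, with 2 arrays each. The labels name no time after transfection, no siRNA sequence and no separate cultures, so p-values measure the spread between these arrays, which may be technical. Knockdown was not checked here. Values are log2 array signals, and a level cannot be set against that of another gene. The line's markers VIM, CD44, AXL and MSN lay between 10.8 and 12.7 on all arrays and none of them changed. ESR1 and PGR lay between 4.57 and 5.93, at or below the filter's limit of 5.96, while EPCAM, listed as a low marker, averaged 9.02. Among markers of other cell types, the annotation named 1 of 4 leukocyte, 2 of 3 endothelial and 2 of 4 fibroblast genes, and VWF and DCN lay below the filter. Against siNC, CD14 was higher with siATM (log2 fold change 1.19) and lower with sip53 (−0.78), LUM was higher with siATM (0.68) and sip53 (0.49), and PECAM1 was lower with siATM (−0.47), all with limma adjusted p below 0.05. Their part in the results below was not tested.

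The mitoribosome has a small subunit that reads the messenger and a large subunit that joins amino acids. Its RNAs come from mitochondrial DNA, but all its proteins are encoded in the nucleus, made in the cytosol and imported. Some descend from the bacterial ribosome and have recognisable bacterial homologues, and others were added in mitochondria. Promoters of nuclear genes for mitochondrial proteins often carry sites for the factors NRF1 and GABP, the second of which recognises the core shared by the ETS family.

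The start regions of 7 members are printed because of their large changes with siATM or, for MRPS26, the only call with sip53. MRPS10, MRPL48, MRPS23 and MRPL58 had the largest falls with siATM, MRPS18B and MRPS35 the largest rises, and MRPS26 was lower with sip53, though the calls of MRPS35 and MRPS26 were lost when single arrays were left out. Each line gives the 250 bases before the annotated start, 5′ to 3′ on the gene's strand, from RefSeq on build GRCh38.p14. Capitals mark CCGGAAG, an ETS-type motif called the core below, on either strand. The regions lie at chr6:42217862-42218111 on the minus strand (MRPS10), chr11:73787624-73787873 on the plus strand (MRPL48), chr17:57850045-57850294 on the minus strand (MRPS23), chr17:75012420-75012669 on the plus strand (MRPL58), chr6:30617590-30617839 on the plus strand (MRPS18B), chr12:27710582-27710831 on the plus strand (MRPS35) and chr20:3045802-3046051 on the plus strand (MRPS26).
MRPS10: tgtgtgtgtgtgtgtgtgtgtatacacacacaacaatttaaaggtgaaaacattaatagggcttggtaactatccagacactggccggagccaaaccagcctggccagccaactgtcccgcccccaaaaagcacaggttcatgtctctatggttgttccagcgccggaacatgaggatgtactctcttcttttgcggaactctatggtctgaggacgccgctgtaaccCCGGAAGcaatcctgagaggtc
MRPL48: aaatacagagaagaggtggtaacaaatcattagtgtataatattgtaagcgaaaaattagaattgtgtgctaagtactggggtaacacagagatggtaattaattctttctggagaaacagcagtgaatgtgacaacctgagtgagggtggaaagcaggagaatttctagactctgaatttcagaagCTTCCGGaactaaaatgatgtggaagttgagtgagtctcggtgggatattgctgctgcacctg
MRPS23: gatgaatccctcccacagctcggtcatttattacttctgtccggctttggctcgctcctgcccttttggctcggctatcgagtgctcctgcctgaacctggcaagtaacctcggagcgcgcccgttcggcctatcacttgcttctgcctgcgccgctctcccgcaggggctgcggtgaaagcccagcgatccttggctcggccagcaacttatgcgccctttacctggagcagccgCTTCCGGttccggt
MRPL58: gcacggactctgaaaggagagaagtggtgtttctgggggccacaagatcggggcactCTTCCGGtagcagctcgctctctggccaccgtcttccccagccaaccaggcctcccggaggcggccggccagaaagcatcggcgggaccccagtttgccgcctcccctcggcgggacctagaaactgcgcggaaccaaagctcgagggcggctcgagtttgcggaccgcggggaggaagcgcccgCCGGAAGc
MRPS18B: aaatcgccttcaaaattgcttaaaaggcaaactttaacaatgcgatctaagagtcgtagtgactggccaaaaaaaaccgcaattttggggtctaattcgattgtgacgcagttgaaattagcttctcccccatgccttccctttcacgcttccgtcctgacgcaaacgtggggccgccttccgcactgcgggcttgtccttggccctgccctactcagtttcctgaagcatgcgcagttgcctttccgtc
MRPS35: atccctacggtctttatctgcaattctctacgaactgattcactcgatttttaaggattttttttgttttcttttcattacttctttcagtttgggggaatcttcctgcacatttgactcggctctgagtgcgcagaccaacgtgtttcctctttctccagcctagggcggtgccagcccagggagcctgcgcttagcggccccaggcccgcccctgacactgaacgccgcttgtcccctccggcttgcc
MRPS26: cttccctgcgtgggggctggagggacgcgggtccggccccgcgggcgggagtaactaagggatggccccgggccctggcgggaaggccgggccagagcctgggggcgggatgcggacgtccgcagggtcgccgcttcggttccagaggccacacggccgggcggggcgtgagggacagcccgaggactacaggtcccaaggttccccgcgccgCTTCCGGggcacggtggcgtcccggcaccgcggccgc

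The core stood in 4 of the 5 members that fell with siATM (MRPS10, MRPL48, MRPS23 and MRPL58, the last with 2 copies) and in MRPS26, but in 1 of the 5 that rose (MRPL53). It also stood in 19 of the 55 members with a start region that did not pass the test. These are matches of letters and show no binding. CCGGAAG was the only ETS spelling searched. Shorter matches, such as CTTCCG in the MRPS18B region, were not counted, so these counts may depend on the spelling. Over the 24 members with the core the median log2 fold change with siATM against siNC was −0.04, and over the 41 without it −0.002, and 11 of the 24 and 20 of the 41 values were positive.

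The ETS core in this spelling was frequent across the family. Of the 73 members, 65 were in the RefSeq start table, with 81 start regions. CCGGAAG, searched on both strands, stood in 32.1% of these regions, against 12.8% of the 11559 regions of the other tested genes and 8.52% of all 35116 regions. An NRF1-type motif, GCGCANGCG, stood in 17.3% of members' regions, against 10.2% of other tested genes' and 6.56% of all. It was the last of 3 spellings tried, chosen after the shares of the others had been seen. The first, with 10 letters, gave 12.3% against 7.96% of other tested genes' regions, and the second, GCGCATGCG, gave 2.47% against 2.47%, so the excess of this motif depends on how it is spelled. The YY1-type motif AAGATGGCG, whose first letters can overlap the end of an ETS core, stood in 3 members' regions (3.7%), against 0.943% of other tested genes' regions. The E-box CACGTG bound by MYC was near its background at 8.64%, against 8.13% of other tested genes' regions. TATAAA was rarer, with 2.47% of members' regions against 5.97%. None of the 10 members called with siATM held the NRF1-type motif in any of the 3 spellings, while 13 of the 55 others held the last one. Only exact matches were counted, and this difference was not tested.

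**Figure D1:**
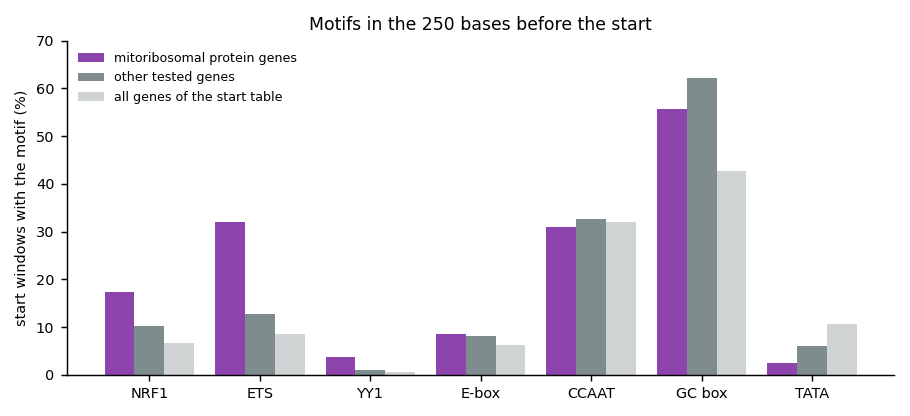
Share of 250-base start regions that hold each motif, in percent, for mitochondrial ribosomal protein genes (81 regions), the other tested genes (11559) and all genes of the start table (35116). The ETS bar of the members, at 32.1%, stands above both others (12.8% and 8.52%), while the E-box bars lie close together.

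With siATM, a small set of mitochondrial ribosomal protein genes changed and most did not pass the test. Against siNC, 5 of 73 rose and 5 fell (limma, adjusted p below 0.05), or 6.85% in each direction. Over all 10640 genes, 12.5% rose and 13.0% fell, 25.5% together, so the members' 13.7% was below the background. After quantile normalization of the arrays 3 rose and 5 fell, since MRPL49 and MRPL53 no longer passed. The size of the shift was also modest: 65 of 73 members (89.0%) differed by less than 1.2-fold, against 78.7% of all genes, and the median of all 73 log2 fold changes was −0.02, against −0.0006 over all genes. That median has no stable sign, since it was 0.04 without siNC replicate 1. The count of 10 was 6 without either siNC array and 6 without either sip53 array, which enter through the shared variance.

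MRPS10, a small-subunit protein with a bacterial homologue, was the member with the largest fall. Its log2 values were 10.12 and 10.07 with siATM, 10.79 and 10.73 with sip53, and 10.72 and 10.76 with siNC. With siATM it was lower than with siNC by 1.56-fold (adjusted p = 0.000657 for a log2 fold change of −0.64, SE 0.06). The siATM arrays thus stood apart from all 4 others, which overlapped.

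MRPL48, a large-subunit protein classed as specific to mitochondria, followed the same pattern. It had 8.76 and 8.72 with siATM and 9.28 and 9.35 with sip53, against 9.35 and 9.32 with siNC. The fall with siATM was 1.51-fold (log2 fold change −0.59, SE 0.06, adjusted p = 0.000903), and sip53 and siNC arrays overlapped. MRPS10 and MRPL48 were the 2 members past 1.5-fold, or 2.74% of the family, against 3.26% of all genes.

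MRPS23, a small-subunit protein without a bacterial homologue, had 8.72 and 8.50 with siATM and 9.15 and 9.22 with sip53, against 9.03 and 9.06 with siNC. Both siATM arrays were lowest, although they differed from each other by 0.22, more than in the other groups (log2 fold change −0.44 with siATM against siNC, SE 0.08, adjusted p = 0.00795). MRPL58, also called ICT1, is a large-subunit protein that retains peptidyl-tRNA hydrolase activity and can release chains from stalled ribosomes. It had 10.47 and 10.46 with siATM and 10.74 and 10.69 with sip53, against 10.91 and 10.80 with siNC. The 3 groups did not overlap, with siATM lowest and siNC highest, and the fall with siATM was 1.31-fold (log2 fold change −0.39, SE 0.06, adjusted p = 0.00461), while sip53 against siNC missed the threshold (−0.15, adjusted p = 0.189, and −0.09 without siNC replicate 1).

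MRPS27, a small-subunit protein with pentatricopeptide repeats, was the fifth member to fall. It had 7.30 and 7.14 with siATM and 7.53 and 7.66 with sip53, against 7.46 and 7.51 with siNC. Its change was small (log2 fold change −0.26, SE 0.08, adjusted p = 0.0438), and of the 6 fits that each omit an array it was called in 1, that without siATM replicate 1 (adjusted p = 0.0349 to 0.176 over the 6).

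**Figure D2:**
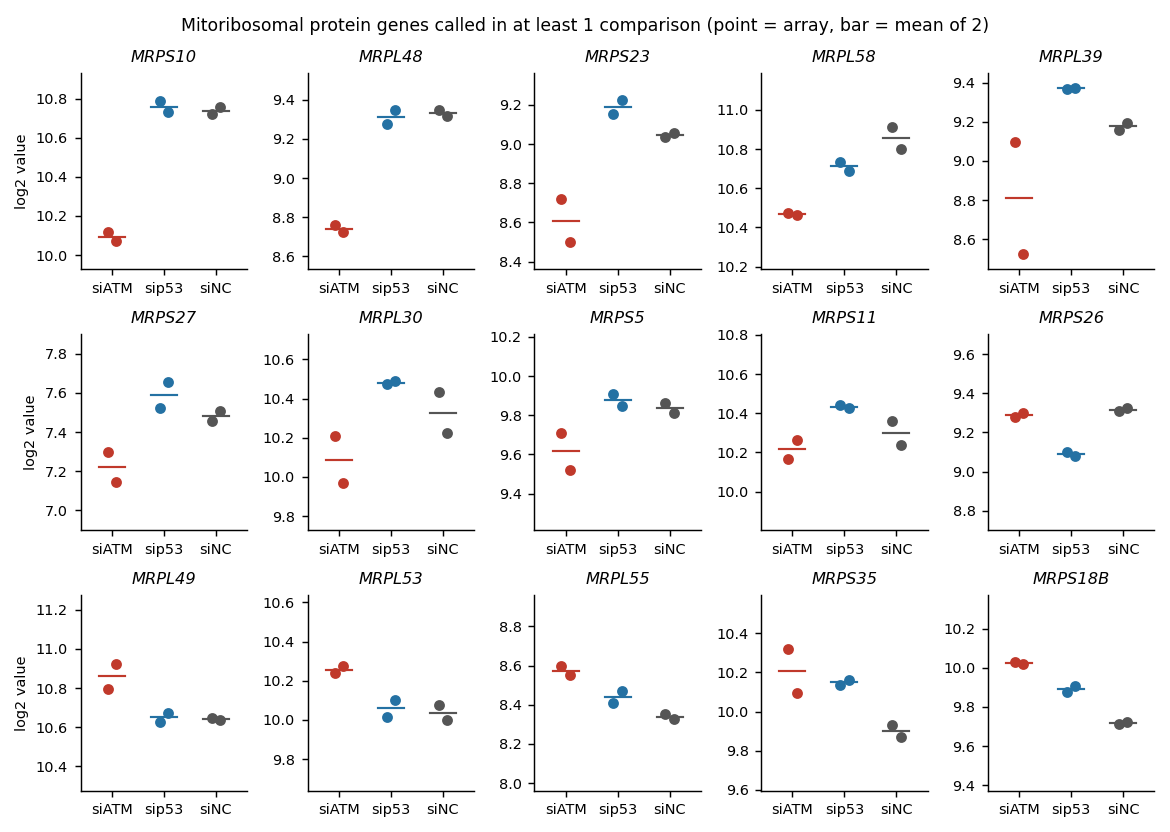
Log2 values of the 15 members called in at least 1 of the 3 comparisons, with 1 point per array and a bar at the mean of each group's 2 arrays; every panel spans 1 log2 unit. For MRPS10 and MRPL48 the siATM points lie at least 0.5 below the sip53 and siNC points, for MRPS26 the sip53 points lie below both other groups, and for MRPL39 the 2 siATM arrays are 0.57 apart.

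MRPS18B, a small-subunit protein, was the member with the largest rise with siATM. It had 10.03 and 10.02 with siATM and 9.87 and 9.91 with sip53, against 9.71 and 9.72 with siNC. The 3 groups were ordered without overlap, siATM highest and siNC lowest. The rise with siATM was 1.24-fold (log2 fold change 0.31, SE 0.05, adjusted p = 0.00698), and the difference with sip53 did not pass (0.17, SE 0.05, adjusted p = 0.0922). The annotation gives this gene 7 probe sets with identical values on every array, which were counted once.

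MRPS18A, MRPS18B and MRPS18C are paralogues of a single bacterial ribosomal protein, and MRPS18A and MRPS18B are counted below with the proteins specific to mitochondria. MRPS18A, the copy placed in the large subunit, had 11.51 and 11.63 with siATM and 11.56 and 11.52 with sip53, against 11.47 and 11.36 with siNC. Both differences from siNC were positive and missed the threshold (0.15 with siATM, adjusted p = 0.148, and 0.12 with sip53, adjusted p = 0.319). The siATM value was 0.09 without siATM replicate 2 and 0.10 without siNC replicate 2, the sip53 value was 0.07 without siNC replicate 2, and the siATM value passed with a variance trend and robust moderation (adjusted p = 0.0385). MRPS18C is not analysed here.

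MRPS35, a small-subunit protein without a bacterial homologue, had 10.32 and 10.09 with siATM and 10.14 and 10.16 with sip53, against 9.93 and 9.87 with siNC. All 4 arrays of the targeted siRNAs were above both siNC arrays. It rose with siATM (log2 fold change 0.30, SE 0.08, adjusted p = 0.0320), but without siATM replicate 1 the value was 0.19, and among the fits that omit an array it was called in 1 of 6, that without siATM replicate 2 (adjusted p up to 0.143). With sip53 the difference was 0.25 (adjusted p = 0.103).

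The other 3 rises were in large-subunit genes and were near the threshold. MRPL55, whose protein has a bacterial homologue, had 8.60 and 8.55 with siATM and 8.41 and 8.47 with sip53, against 8.35 and 8.32 with siNC (0.24 with siATM against siNC, SE 0.06, adjusted p = 0.0229). MRPL53, specific to mitochondria, had 10.24 and 10.28 with siATM and 10.02 and 10.10 with sip53, against 10.07 and 10.00 with siNC (0.22, SE 0.06, adjusted p = 0.0389). MRPL49, also specific to mitochondria, had 10.79 and 10.92 with siATM and 10.63 and 10.67 with sip53, against 10.65 and 10.64 with siNC (0.22, SE 0.06, adjusted p = 0.0479). In all 3 the siATM arrays were the highest. MRPL53 lost its call whichever array was left out (adjusted p = 0.0617 to 0.183), MRPL49 without any array except siATM replicate 1 (up to 0.164), and MRPL55 when siATM replicate 1 or one of the siNC arrays was omitted (up to 0.112). By contrast MRPS10, MRPL48, MRPS23, MRPL58 and MRPS18B kept their calls in all 6 such fits and in the 8 other alternatives.

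The 2 uncalled members with the lowest unadjusted p for siATM were MRPS7 and MRPL32. MRPS7, whose Escherichia coli homologue organises the head of the small subunit, had 11.39 and 11.46 with siATM and 11.49 and 11.37 with sip53, against 11.23 and 11.20 with siNC. Its differences from siNC were nearly the same size, 0.21 with siATM (adjusted p = 0.0511) and 0.22 with sip53 (adjusted p = 0.0773). Neither passed, although siNC did not overlap either group. MRPL32, a large-subunit protein that must be cut by the m-AAA protease before it enters the ribosome, had 7.48 and 7.48 with siATM and 7.46 and 7.49 with sip53, against 7.33 and 7.28 with siNC. The differences were 0.17 in both cases (adjusted p = 0.0596 with siATM and 0.102 with sip53). Both comparisons use the same siNC arrays, so their likeness is not independent.

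By structural class, 4 of 21 large-subunit and 4 of 10 small-subunit genes classed as specific to mitochondria were called with siATM. Of those classed as having bacterial homologues, 1 of 29 and 1 of 13 were called, where 25.5% of all genes were called. The classes specific to mitochondria hold MRPS18A and MRPS18B, which have a bacterial relative, and MRPS18B is 1 of the 4 small-subunit calls. Whether others in these classes, such as MRPL48 and MRPL58, have bacterial relatives was not checked. The calls of MRPL49, MRPL53, MRPL55, MRPS27 and MRPS35 in these counts depended on single arrays, as given above. Of the 29 large-subunit genes with bacterial homologues, 1 rose (MRPL55) and 0 fell, with log2 fold changes from −0.24 (MRPL30) to 0.24 and a median of −0.04. The MRPL30 value was −0.12 without siATM replicate 2 and −0.14 without siNC replicate 1. Of 21 large-subunit genes specific to mitochondria, 2 rose and 2 fell, from −0.59 (MRPL48) to 0.22 (MRPL53) with a median of 0.04. Of 13 small-subunit genes with bacterial homologues, 0 rose and 1 fell, from −0.64 (MRPS10) to 0.25 (MRPS21) with a median of −0.03. Of 10 small-subunit genes specific to mitochondria, 2 rose and 2 fell, from −0.44 (MRPS23) to 0.31 (MRPS18B) with a median of 0.10. Over all genes 12.5% rose and 13.0% fell, and the differences between classes were not tested.

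**Figure D3:**
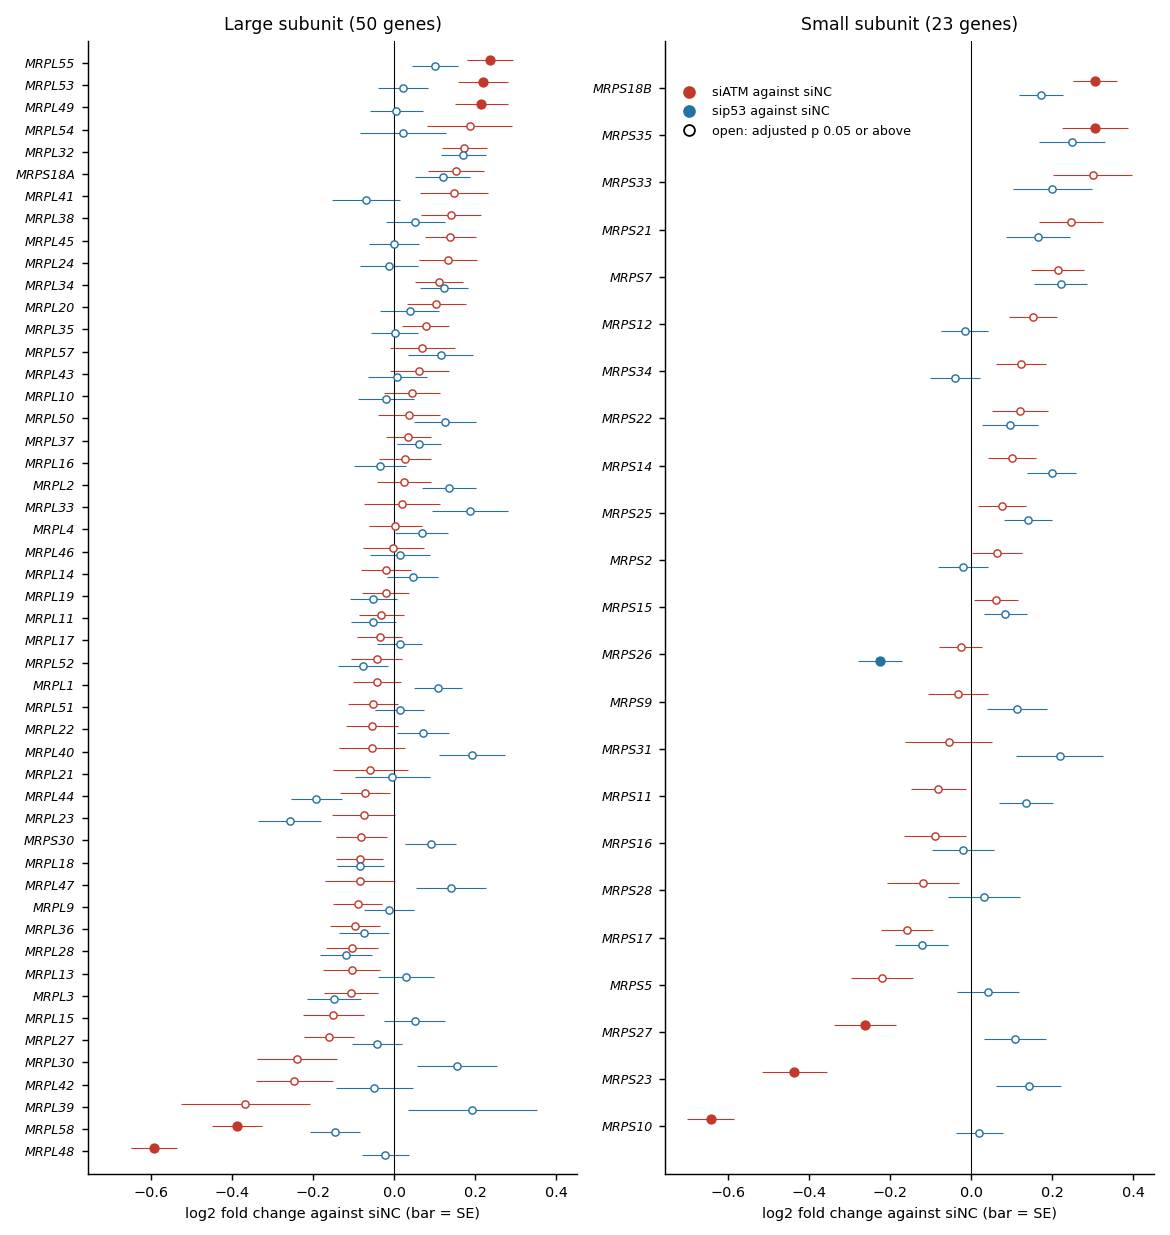
Log2 fold change against siNC for all 73 members, siATM in red and sip53 in blue, with bars of 1 SE; filled points passed the test (adjusted p below 0.05) and genes are ordered by the siATM value within the large (50 genes) and small (23 genes) subunit. Most points lie within 0.25 of 0, and MRPS10, MRPL48, MRPS23 and MRPL58 have the lowest filled siATM points.

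With sip53, 1 of 73 members passed the test. Against siNC, 0 rose and 1 fell (1.37%), while over all genes 5.47% rose and 5.11% fell, 10.6% together (limma, adjusted p below 0.05). At an unadjusted p below 0.05, 10 members (13.7%) passed, against 26.4% of all genes. All 73 members differed by less than 1.2-fold, against 87.8% of all genes, and the median log2 fold change was 0.03, against 0.01 over all genes.

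The member that fell was MRPS26, a small-subunit protein specific to mitochondria. It had 9.28 and 9.30 with siATM and 9.10 and 9.08 with sip53, against 9.31 and 9.32 with siNC. The 2 sip53 arrays were below the other 4, which lay within 0.05 of each other. The fall was 1.17-fold (log2 fold change −0.23, SE 0.05, adjusted p = 0.0419). It kept its call without either siATM array and lost it without any siNC or sip53 array (adjusted p up to 0.204). The count was 0 in those 4 fits and 3 without either siATM array.

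MRPL23, whose bacterial homologue lies at the exit of the nascent chain, was not called. With sip53 against siNC it had the lowest log2 fold change of all 73 members. It had 6.88 and 7.08 with siATM and 6.76 and 6.83 with sip53, against 7.02 and 7.09 with siNC. The sip53 arrays were the lowest, but the difference from siNC did not pass (−0.26, SE 0.08, adjusted p = 0.0837). Next to MRPS7, it had the lowest unadjusted p of the uncalled members with sip53. At the other end MRPS35 (0.25), MRPS7 (0.22), MRPS31 (0.22) and MRPS33 (0.20) had the highest values, all of them small-subunit genes and none past the threshold. For MRPS31 and MRPS33 the siNC arrays were 0.34 and 0.29 apart with replicate 2 lower, so both values lean on that array. Just below stood MRPS14 (0.20) and the large-subunit genes MRPL39 and MRPL40 (0.19 each).

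Small shifts with sip53 were more often upward. Both sip53 arrays lay above both siNC arrays for 30 members (41.1%) and below them for 11 (15.1%), against 33.1% and 25.8% of all genes. For siATM against siNC the counts were 24 above (32.9%) and 22 below (30.1%), near the background of 31.9% and 30.8%. Such orderings of 2 arrays against 2 say little of a single gene. The upward lean also depends on the scaling, since centring each array on its median over the tested genes gave a sip53 median of −0.001.

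siATM and sip53 arrays were also set against each other, a contrast that does not use the siNC means. With siATM, 3 members were higher (4.11%) and 9 lower (12.3%) than with sip53, against 14.0% and 16.3% of all genes, 30.3% together (limma, adjusted p below 0.05). The members' 16.4% was again below the background. After quantile normalization 1 was higher and 10 were lower. Both siATM arrays lay below both sip53 arrays for 33 members (45.2%) and above them for 17 (23.3%), against 34.4% and 31.0% of all genes. These orderings were not recounted after centring. The array medians over the tested genes were 8.13 and 8.10 with siATM and 8.13 and 8.15 with sip53. The count of 12 was 4 without either sip53 array, 5 without siATM replicate 2 and 7 without either siNC array.

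**Figure D4:**
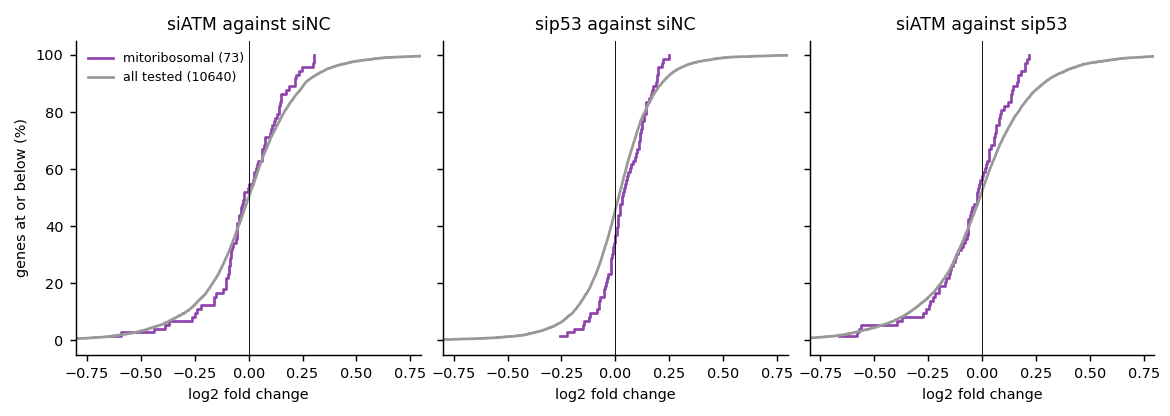
Cumulative share of genes, in percent, at or below each log2 fold change for the 73 mitochondrial ribosomal protein genes and all 10640 tested genes in the 3 comparisons; the axis is cut at 0.8 on each side. The members' curve is steeper at the upper end in each panel and stops at 0.31, 0.25 and 0.22, and on the low side of the siATM panels a few genes reach past −0.5.

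MRPS10 (log2 fold change −0.66, adjusted p = 0.000423), MRPS23 (−0.58, adjusted p = 0.00204) and MRPL48 (−0.57, adjusted p = 0.000643) were also the members furthest below sip53, and these 3 kept the call in every fit with 1 array left out. MRPS27 (−0.37, adjusted p = 0.0103) lost it without sip53 replicate 2 (adjusted p = 0.0727). MRPL58 (−0.24, adjusted p = 0.0231) lost it without any siATM or sip53 array (up to 0.130).

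Of the members called in this comparison, 4 lower ones had not passed against siNC. MRPL39, a large-subunit protein specific to mitochondria, had 9.10 and 8.52 with siATM, against 9.37 and 9.37 with sip53, while siNC had 9.16 and 9.20. Both siATM arrays were the lowest, but they were 0.57 apart, the widest gap between replicates of any member. The log2 fold change against sip53 was −0.56 (SE 0.16, adjusted p = 0.0348). It was −0.27 without siATM replicate 2 (adjusted p = 0.0282) and −0.85 without siATM replicate 1 (adjusted p = 0.00241), and the call was lost without any siNC or sip53 array (up to 0.116). Against siNC the value was −0.37 (adjusted p = 0.136), and it passed without siATM replicate 1 (−0.65, adjusted p = 0.00419).

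MRPL30, a large-subunit protein with a bacterial homologue, had 10.21 and 9.97 with siATM, against 10.47 and 10.49 with sip53, while siNC had 10.43 and 10.22 (−0.39 for siATM against sip53, adjusted p = 0.0216). MRPS5 had 9.71 and 9.52 with siATM, against 9.91 and 9.85 with sip53, while siNC had 9.86 and 9.81 (−0.26, adjusted p = 0.0376, and −0.17 without siATM replicate 2). MRPS11 had 10.17 and 10.26 with siATM, against 10.44 and 10.43 with sip53, while siNC had 10.36 and 10.24 (−0.22, adjusted p = 0.0474). MRPS5 and MRPS11 encode small-subunit proteins with bacterial homologues. In these 3 genes the siATM and sip53 arrays did not overlap. MRPL30 lost its call when siATM replicate 2 or one of the sip53 arrays was omitted (up to 0.0927), MRPS5 without any array except siATM replicate 1 (up to 0.173), and MRPS11 whichever array was left out (up to 0.175).

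Higher with siATM than with sip53 were MRPL49 (0.21, adjusted p = 0.0461), MRPL53 (0.20, adjusted p = 0.0482) and MRPS26 (0.20, adjusted p = 0.0290). MRPS26 stands here because of its low sip53 arrays. MRPL53 and MRPS26 lost this call whichever array was left out (up to 0.243 and 0.142), and MRPL49 without any array except siATM replicate 1 (up to 0.202).

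Replicates of the members were as close as those of other genes or closer. The SD of the difference between the 2 arrays of a group was 0.132 with siATM, 0.0660 with sip53 and 0.108 with siNC over the 73 members, against 0.148, 0.115 and 0.124 over all tested genes. The widest gap in each group was 0.57 with siATM (MRPL39), 0.22 with sip53 (MRPL41) and 0.34 with siNC (MRPS31). Of the members with several probe sets, MRPS16 had 2 that gave like values (−0.09 and −0.10 with siATM against siNC). The second probe sets of MRPS2 (−0.08 against 0.06 for the one used) and MRPL44 (0.26 against −0.07) had the opposite sign, and that of MRPL44 had a mean of 2.70, below the filter.

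Other parts of mitochondrial gene expression also changed in single genes, to be read against the 25.5%, 10.6% and 30.3% of all genes called with siATM, with sip53 and between them. Of 4 tested mitoribosomal proteins with other symbols (of 6 listed), 0 passed with siATM or sip53 against siNC. Between siATM and sip53, PTCD3, a pentatricopeptide protein of the small subunit, was higher with siATM (0.21, adjusted p = 0.0344), and KGD4, once listed as MRPS36 and now placed in the ketoglutarate dehydrogenase complex, was lower (−0.24, adjusted p = 0.0396). Of 24 assembly factors tested (of 28), 2 rose with siATM and 0 fell: NOA1, a GTPase needed for mitochondrial translation (0.57, adjusted p = 0.00366), and MTG2, a GTPase of large-subunit assembly (0.32, adjusted p = 0.00864). With sip53 none of the 24 passed, and NOA1 stood at 0.27 (adjusted p = 0.0957). Between siATM and sip53, 3 of the 24 were higher with siATM, among them NOA1 (0.30) and MTG2 (0.28), and 2 were lower, MTERF3 (−0.30) and FASTKD2 (−0.22).

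Of 13 mitochondrial translation factors tested (of 17), 1 rose and 2 fell with siATM. OXA1L, the insertase that receives new chains from the ribosome, rose (0.19, adjusted p = 0.0458). TACO1, an activator of cytochrome oxidase subunit translation, fell (−0.36, adjusted p = 0.0104), as did GUF1, a ribosome-bound GTPase (−0.29, adjusted p = 0.0205). With sip53, the release factor gene MTRF1L fell (−0.34, adjusted p = 0.0161). Between siATM and sip53, MTIF3, an initiation factor, was higher with siATM (0.22), and TACO1 (−0.47) and GUF1 (−0.44) were lower.

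Of 13 genes of mitochondrial RNA synthesis and processing tested (of 18), 3 rose and 1 fell with siATM. FASTK (0.27), the RNA granule protein gene GRSF1 (0.25) and HSD17B10 (0.25), a subunit of mitochondrial RNase P, rose, and PNPT1, an exoribonuclease, fell (−0.22), with adjusted p from 0.0285 to 0.0413. HSD17B10 rose with sip53 as well (0.36, adjusted p = 0.0152). Between siATM and sip53, GRSF1 was higher with siATM (0.42) and PNPT1 lower (−0.20).

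Of 6 nuclear regulators tested (of 12), 2 rose with siATM, MYC (0.40, adjusted p = 0.00371) and the nuclear receptor gene ESRRA (0.34, adjusted p = 0.0349), and HCFC1, a transcriptional cofactor, fell (−0.24, adjusted p = 0.0356). None passed with sip53, and between siATM and sip53 MYC was higher with siATM (0.46). The gene for NRF1 did not pass with siATM (−0.03, adjusted p = 0.784), and the GABP genes GABPA, GABPB1 and GABPB2 were not among those tested. Of 15 import and presequence-processing genes tested (of 19), 3 rose with siATM, among them SPG7, a subunit of the m-AAA protease that cuts MRPL32 (0.31, adjusted p = 0.00678), the channel gene TIMM17B (0.25) and the peptidase gene MIPEP (0.24), and 1 fell, the import receptor gene TOMM70 (−0.35, adjusted p = 0.00836). None of the 15 passed with sip53. Between siATM and sip53, 3 were higher with siATM, SPG7 (0.44), MIPEP (0.38) and TOMM22 (0.30), and 2 lower, among them TOMM70 (−0.32). Over all these lists 16 of 75 tested genes changed with siATM, against 25.5% of all genes. The count was 5 without either siNC array and 9 without siATM replicate 2 or either sip53 array. With sip53 it was 2, against 10.6% of all genes, and 3 without either siATM array, 0 without either siNC array or sip53 replicate 2 and 1 without sip53 replicate 1. For siATM against sip53 it was 18, against 30.3% of all genes, and 6 and 9 without sip53 replicate 1 and 2.

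Members often lie head to head with another gene. On the RefSeq map, 24 of 65 members (36.9%) had the start of an oppositely directed gene within 1000 bases upstream, against 26.8% of 8158 other tested genes and 20.1% of all 27305 genes in the table. In 1 such pair both genes were members, MRPL46 and MRPS11, with starts 320 bases apart. With siATM against siNC, MRPL46 had a log2 fold change of −0.002 and MRPS11 of −0.08, and neither passed.

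In some pairs the partner passed the test and the member did not. Since 25.5% of all genes passed with siATM and 10.6% with sip53, these are examples and no result about such pairs. Many partners were not among the tested genes. The tested partners TMEM63B, CYB5RL, ZNF189, PTCD2 and FAU, and the pair MRPL46 and MRPS11, passed with neither siRNA against siNC. SKA3, a spindle gene 106 bases from MRPL57, fell with siATM (−0.51, adjusted p = 0.00288), while MRPL57 stood at 0.07. EME1, a DNA repair nuclease gene 45 bases from MRPL27, fell with siATM (−0.29, adjusted p = 0.0249), while MRPL27 stood at −0.16 and did not pass. PIERCE1, 96 bases from MRPS2, rose with siATM (0.29, adjusted p = 0.0134), while MRPS2 stood at 0.06. HIRA, a histone chaperone gene 812 bases from MRPL40, fell with sip53 (−0.41, adjusted p = 0.00770), and MRPL40 stood at 0.19. Of the called members, MRPS27 (−0.26 with siATM) faces PTCD2 (0.02, adjusted p = 0.880), and MRPL49 (0.22) faces FAU (0.14, adjusted p = 0.315). The differences within these pairs were not tested, and the pairs were picked after their values were seen.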

How the data were processed

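RNA of 6 samples was hybridised to Affymetrix Human Gene 2.0 ST arrays, 1 sample per array, per the labels. The deposited table holds log2 values, a scale read from the values themselves (1.33 to 14.2, array medians 5.95 to 5.98). The authors' background correction, summarisation and normalization are not given in the sources used here, but the sorted log2 values of the arrays differ by 0.0325 on average, so a change in total RNA per cell would not show. Array number limits the precision.

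The platform annotation gives 1 symbol to 16098 of 53617 probe sets. The brightest probe set per gene was used, and genes were tested when their mean reached 5.96, the median over probe sets. Group means were fitted with limma 3.58.1 in R 4.3.3 over all 6 arrays (3 residual and 7.29 total degrees of freedom). P-values are two-sided and adjusted by Benjamini-Hochberg over 10640 genes per contrast, with calls below 0.05.

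Members, gene lists and motif letters were chosen with earlier results of these data known, so lists are described by counts. The NRF1-type motif was spelled in 3 ways and the spelling reported was chosen after the shares were seen. Members and neighbours named outside the following rule were picked after their values were seen. Named members are all those called in any contrast, MRPS18A and MRPS18B, and for each siRNA against siNC the 2 uncalled members with the lowest unadjusted p. From each list up to 4 called genes per contrast are named. Alternatives changed the filter, normalization, probe-set rule, variance model, arrays used and replicate block. The list of mitochondrially encoded genes had 0 of 15 members in the annotation used.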

Additional observations from a re-analysis of the deposited data

How the results depend on the processing

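Counts of called members moved with the filter and the variance model. For siATM against siNC the 10 members became 5 with no filter, 16 with the filter at the 70th percentile of brightness, 19 with a variance trend and robust moderation, 6 from the 4 arrays of the 2 groups alone and 6 to 10 with 1 array left out. For sip53 the 1 member became 0, 7, 5, 3 and 0 to 3 in the same order, and 0 with the replicate block. For siATM against sip53 the 12 became 4 with no filter, 20 at the 70th percentile, 7 from 4 arrays and 4 to 12 with 1 array left out. The related genes became 7 (no filter), 9 (4 arrays) and 5 to 12 (1 array left out) of 16 for siATM, 0 (no filter), 5 (70th percentile), 5 (variance trend) and 0 to 3 of 2 for sip53, and 10, 28, 28 and 6 to 17 of 18 between the siRNAs, where the 4-array count stayed within 1.5 times. In all 14 alternatives of each contrast the share of members called was below that of all genes, and 5 of the 10 siATM calls were kept in each. Quantile normalization, array centring and the mean of probe sets moved none of these totals by over 1.5 times. The split by direction did change: the 5 higher and 5 lower with siATM against siNC became 3 and 5 with quantile normalization and 1 and 4 with no filter, and the 3 higher and 9 lower with siATM against sip53 became 1 and 10, and 0 and 4. No named member reversed sign with a call. The members' median log2 fold change moved by less than 0.08, the pooled SD of the members' array medians within groups, and with 1 array left out it ran from −0.02 to 0.04 (siATM), 0.03 to 0.06 (sip53) and −0.04 to −0.02 (siATM against sip53). The share of members' start regions with the NRF1-type motif, 17.3%, was 12.3% with the 10-letter spelling tried first and 2.47% with GCGCATGCG tried second, alternatives added after seeing the data. The labels do not say whether arrays with the same replicate number share a batch. Deviations of same-numbered arrays correlated at 0.12, 0.04 and 0.03 between groups. In each group the median over all probe sets was lower in replicate 1, and a shared batch was not tested. With the replicate block siATM against siNC had 9 called members, having lost MRPL53 (adjusted p = 0.0519) and MRPS27 (adjusted p = 0.0591) and gained MRPS5 (adjusted p = 0.0492). In that fit sip53 against siNC lost MRPS26 (adjusted p = 0.0584). There siATM against sip53 had 11, having lost MRPL53 and MRPS11 (adjusted p = 0.0620 each) and gained 1 other member. With 2 arrays a group the precision of every call is limited, and the cause of the moves was not tested.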
